A study of Mus musculus with 9 samples.

Results

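The MS4A genes (membrane-spanning 4-domains, subfamily A) encode small proteins that cross the cell membrane 4 times. Transcripts of 9 of them, Ms4a4a, Ms4a4b, Ms4a4c, Ms4a4d, Ms4a6b, Ms4a6c, Ms4a6d, Ms4a7 and Ms4a8a, were followed in Mϕs grown from the bone marrow (BM) of mice and exposed to IL-4 or IL-6. They were found by matching the Ensembl identifiers of the deposited table to these symbols, which gave 9 of the 53379 genes in the table. In control Mϕs the most abundant were Ms4a4a and Ms4a7. With IL-4, Ms4a4c, Ms4a6b, Ms4a6c and Ms4a7 fell and Ms4a8a rose, while Ms4a6d was at its control level. With IL-6, Ms4a6d and Ms4a4c were higher than in control Mϕs.

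Both ends of an MS4A protein lie in the cytoplasm, and several members work as partners of other receptors. The best known are MS4A1 (CD20), the B-cell antigen targeted by therapeutic antibodies, and MS4A2, the β-chain of the high-affinity IgE receptor of mast cells and basophils. The members studied here are found largely in cells of the monocyte and Mϕ lineage. MS4A4A is a Mϕ surface protein that associates with the β-glucan receptor Dectin-1, and Ms4a4b is best known from T cells, where it modulates signaling by the co-stimulatory receptor GITR.

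BM cells of 3 C57BL/6 mice, with no transgene or deletion named in the labels, were grown in 10 ng/ml M-CSF (CSF-1, the Mϕ growth factor) for 3 days. They then stayed for 4 days in M-CSF alone (Control, n = 3 libraries), in M-CSF with 10 ng/ml IL-4 (IL-4, n = 3) or in M-CSF with 100 ng/ml IL-6 (IL-6, n = 3), by the labels; the study's methods name a higher IL-4 dose, and its legends name other doses of both cytokines and a shorter time. The cells are cultures grown from whole marrow, and M-CSF was present in all 3 groups throughout. Polyadenylated RNA was sequenced from a stranded kit, and values are FPKM, fragments per kilobase of exon and per 1000000 fragments. Levels of different genes can be set side by side only as far as the exon length used for each fits its transcripts.

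The libraries held 29988160 to 39909571 fragments. A list of 7 Mϕ markers (Adgre1, Csf1r, Cd68, Mertk, Fcgr1, Itgam and Lyz2) was detected in all 9 libraries. Their summed level was 16537 to 18825 FPKM in control, 6006 to 7028 with IL-4 and 20053 to 21174 with IL-6. Most of each sum was Lyz2, at 13786 to 16064, 4479 to 5734 and 17852 to 18963 FPKM in the same order. The sum therefore says little of the other markers, the lowest of which was Mertk at 6.69 FPKM in an IL-4 library. Of these 7, 4 (Adgre1, Csf1r, Fcgr1 and Lyz2) fell with IL-4 by the test given below, against 8.89% of all genes tested, and none was called with IL-6. Control #1 to #3 and IL-4 #1 carried 36.1 to 54.7 summed FPKM of 16 intestinal (Paneth and goblet cell) genes, against 0.0139 to 0.175 in the other 5 libraries, and 2.69 to 8.45 summed FPKM of 16 skeletal muscle genes, against 9.11 to 15.2. All control libraries thus belong to one set of libraries and all IL-6 libraries to the other, so the set and the difference between IL-6 and control cannot be told apart without IL-4 #1. For the members, values within a set are given beside the results, and a fit that carries the set as a further term is called the set-adjusted fit. In that fit 2 of the 4 Mϕ marker falls with IL-4 (Fcgr1 and Lyz2) stayed called.

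All 9 members lie on chromosome 19 (coordinates are from GENCODE M21 on GRCm38). Ms4a8a (11067471 to 11081102, minus strand) stands apart, 239.9 kb before the other 8. The 8 fill 283.8 kb in the order Ms4a7 (11321039 to 11336146, minus strand), Ms4a4a (11375523 to 11392790), Ms4a4c (11404770 to 11427246), Ms4a4b (11443553 to 11467055), Ms4a6c (11469366 to 11482192), Ms4a6b (11516512 to 11531256), Ms4a4d (11536801 to 11558467), all on the plus strand after Ms4a7, and Ms4a6d (11586604 to 11604849, minus strand). All are annotated as protein-coding. Aligned over their coding sequences, Ms4a4b and Ms4a4c were 91.7% identical in nucleotides, Ms4a4c and Ms4a4d 85.4%, and Ms4a4b and Ms4a4d 83.2%. Within the second group, Ms4a6b and Ms4a6d were 79.8% identical, Ms4a6b and Ms4a6c 74.4%, and Ms4a6c and Ms4a6d 67.2%. Ms4a4a was at most 59.9% identical to any other member despite its name.

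Near-identical genes can share reads. Of the stretches of 50 bases in the transcripts, 10.5% in Ms4a6c (chiefly with Ms4a6b), 8.19% in Ms4a4c (chiefly with Ms4a4b), 3.57% in Ms4a6b, 2.54% in Ms4a6d and 2.4% in Ms4a4b also occur in another gene. The share was 0.546% in Ms4a4d, 0.306% in Ms4a7 and 0 in Ms4a4a and Ms4a8a. How reads from such stretches were counted is not stated, so the values of Ms4a4b beside Ms4a4c, and of Ms4a6b beside Ms4a6c, carry that uncertainty.

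The regions before the transcription starts were read from RefSeq (GRCm38.p6), where 8 members matched and Ms4a6d did not. Those of Ms4a6b and Ms4a6c are shown because the 2 genes changed most alike. Capitals mark runs of 15 or more bases that both share within 250 bases of the start, and bases of these regions that M21 annotates as exon are not shown. The RefSeq starts of Ms4a6b and Ms4a4c lie inside the M21 genes, after a first M21 exon. For Ms4a6b 106 bases and for Ms4a6c 2 bases before the RefSeq start are left out, which cuts the second capital run of each short.
Ms4a6b, chr19:11518309-11518452, plus strand: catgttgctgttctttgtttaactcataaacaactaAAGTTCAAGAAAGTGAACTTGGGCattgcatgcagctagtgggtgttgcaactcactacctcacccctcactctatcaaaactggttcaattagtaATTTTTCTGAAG
Ms4a6c, chr19:11469118-11469365, plus strand: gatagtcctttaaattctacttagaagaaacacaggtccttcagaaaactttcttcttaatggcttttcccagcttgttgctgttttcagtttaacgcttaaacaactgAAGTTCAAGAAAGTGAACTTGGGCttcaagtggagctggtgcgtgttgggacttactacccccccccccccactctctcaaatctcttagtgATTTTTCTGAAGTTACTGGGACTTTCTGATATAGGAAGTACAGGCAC
The longest shared run has 48 bases, which neither line shows in full. It ends 1 base before the start of Ms4a6c and 70 bases before that of Ms4a6b, and 2 of the 32851 promoter windows in the table hold it. The corresponding regions of Ms4a4b and Ms4a4c, whose windows of 300 bases were 72.3% identical, are shown because these 2 genes moved differently with IL-4. Capitals again mark shared runs of 15 or more bases, the longest of which has 20.
Ms4a4b, chr19:11443308-11443552, plus strand: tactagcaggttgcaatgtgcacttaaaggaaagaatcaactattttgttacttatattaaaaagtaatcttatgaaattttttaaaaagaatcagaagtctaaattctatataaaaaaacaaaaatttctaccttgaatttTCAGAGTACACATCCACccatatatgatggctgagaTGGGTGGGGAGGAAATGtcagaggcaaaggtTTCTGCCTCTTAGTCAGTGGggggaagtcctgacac
Ms4a4c, chr19:11407411-11407660, plus strand: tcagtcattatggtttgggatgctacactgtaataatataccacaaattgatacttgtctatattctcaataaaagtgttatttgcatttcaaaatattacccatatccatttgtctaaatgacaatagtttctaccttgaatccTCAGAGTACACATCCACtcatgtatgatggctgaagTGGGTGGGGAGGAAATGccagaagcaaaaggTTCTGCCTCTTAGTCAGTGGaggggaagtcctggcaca
Letters that transcription factors of the cytokine pathways are known to bind were searched on both strands of each window. TTC and GAA with 4 bases between them, the spacing preferred by STAT6, the factor activated by IL-4, occurred in 6.95% of the 32851 windows, TTCNNNGAA, the spacing bound by STAT3, in 8.30%, and GAGGAAGT, bound by the myeloid factor PU.1, in 3.20%. Among the members, the first was found in Ms4a7, 13 bases before the start, and in Ms4a6b, 8 bases after it, while the other 2 were found in none of the 9 windows of the 8 members. The region of Ms4a7 is shown with the match in capitals.
Ms4a7, chr19:11336147-11336396, minus strand: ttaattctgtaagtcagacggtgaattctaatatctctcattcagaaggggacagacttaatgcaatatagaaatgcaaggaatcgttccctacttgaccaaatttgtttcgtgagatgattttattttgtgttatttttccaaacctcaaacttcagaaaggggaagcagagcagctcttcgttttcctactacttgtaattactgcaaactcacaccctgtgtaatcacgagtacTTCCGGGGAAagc

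The conditions were compared with limma, in one fit of log2(FPKM + 0.1) over all 9 libraries and the 12824 genes with a mean of at least 0.5 FPKM, and p-values were adjusted by Benjamini-Hochberg over all of these genes. To be called, a gene needed an adjusted p below 0.05 and a log2 fold change of 1 or more in either direction. The added 0.1 makes log2 fold changes understate the change of low genes. Of the 9 members, 7 passed the filter, while the values of Ms4a4b and Ms4a4d, which did not, come from a fit of unfiltered genes. Errors are SD over 3 libraries. The exact permutation test of 3 libraries against 3 is two-sided and cannot go below p = 0.1, the value it gave for every pair of groups described here as not overlapping. In bulk RNA, fewer cells of a type and less RNA per cell cannot be told apart, which holds for every difference below.

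Summed over the 9 members, control libraries held 670.3, 536.9 and 527.4 FPKM, IL-4 libraries 257.3, 242.2 and 181.6, and IL-6 libraries 814.7, 722.9 and 782.1. The 3 groups did not overlap, and as a share of the control mean IL-4 gave 39.3% and IL-6 133.7%. The makeup of the sum differed as well. Ms4a6d was 15.4 to 20.5% of it in control, 42.0 to 53.9% with IL-4 and 33.3 to 36.0% with IL-6, whereas Ms4a7 was 24.7 to 37.0%, 18.3 to 37.4% and 16.2 to 19%.

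In control Mϕs the order of mean levels was Ms4a4a, Ms4a7, Ms4a6d, Ms4a6c, Ms4a6b, Ms4a4c, Ms4a8a, Ms4a4b and Ms4a4d. The libraries of Ms4a4a and Ms4a7 overlapped, as did those of Ms4a8a and Ms4a4b, and no other neighbours in this order did. Ms4a4a ranked 196 and Ms4a7 234 among the tested genes by control level. By fragments Ms4a7 was ahead, with 25717 to 26545 per control library against 3435 to 8740 for Ms4a4a. Their exon lengths in M21 are 4453 and 836 bases, so the order of members depends on the lengths used. With IL-4 Ms4a6d led, followed by Ms4a4a and Ms4a7, which overlapped, then Ms4a6c, Ms4a8a, Ms4a6b and Ms4a4c, the last 2 overlapping. With IL-6 Ms4a6d and Ms4a4a led and overlapped, followed by Ms4a7, Ms4a6c, Ms4a6b and Ms4a4c without overlap.

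**Figure D1:**
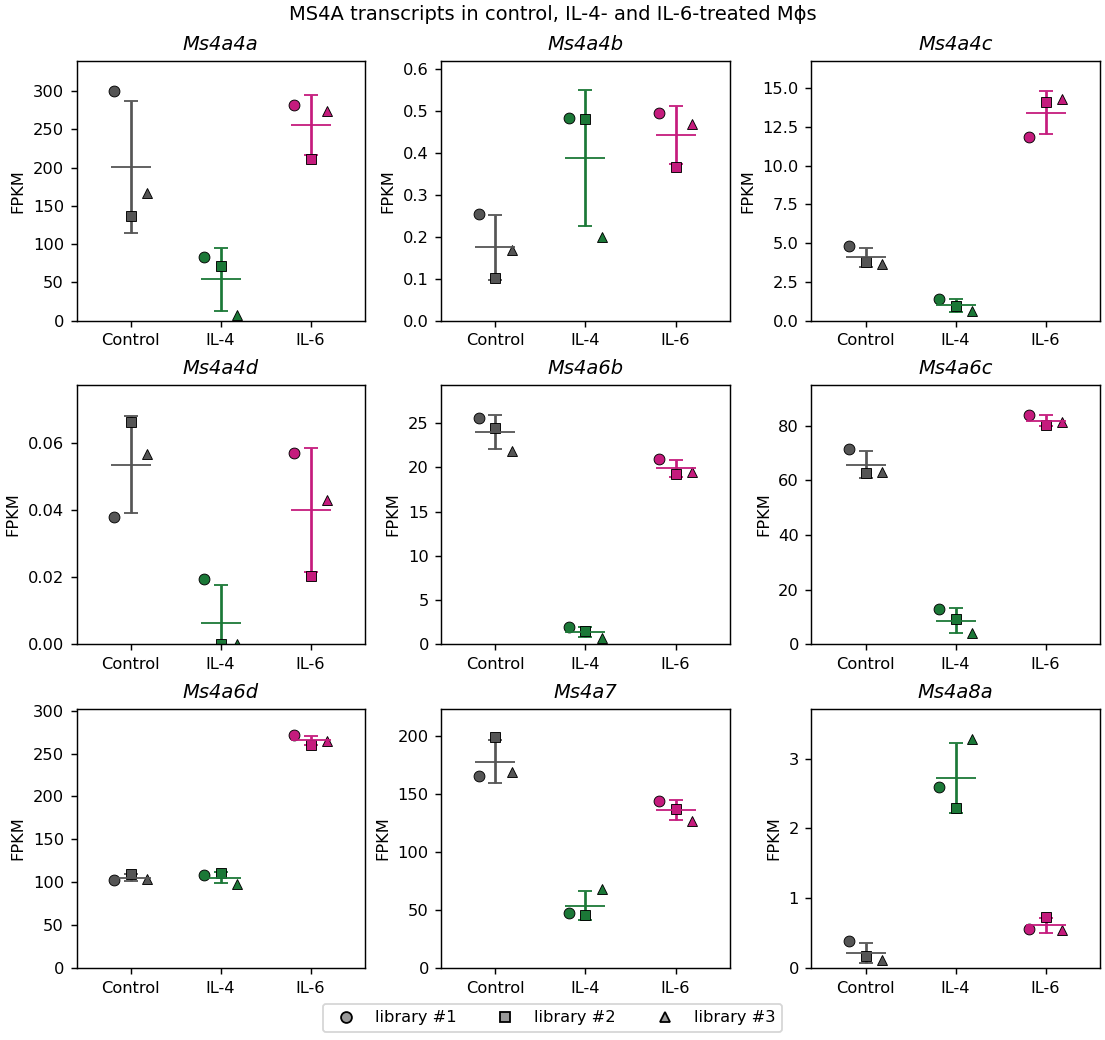
FPKM of the 9 members in each library, by condition, with circles, squares and triangles for libraries #1, #2 and #3, and the mean ± SD (n = 3) as a bar with whiskers. Each panel has its own axis from 0. The Ms4a6b and Ms4a6c libraries with IL-4 lie far below the others, and the Ms4a6d libraries with IL-6 lie far above the others.

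IL-4 against control asks how the type 2 cytokine that drives alternative activation of Mϕs changed the family. Of the 7 members tested, 5 were called, 4 lower and 1 higher with IL-4. The 1 higher, Ms4a8a, passed the filter through its IL-4 libraries, so its place among the tested members depends on the difference itself. Over all genes tested, 8.89% were called lower and 5.02% higher, a split of 1140 and 644 that became 874 and 834 after rescaling each library by its median ratio. The median log2 fold change of the 7 members was −2.01, and that of all genes tested was −0.20 (−0.01 after rescaling). The 5 member calls kept their direction and stayed called after rescaling.

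Ms4a6b had the steepest fall. It had 25.6, 24.5 and 21.8 FPKM in control and 1.92, 1.52 and 0.749 with IL-4, from 134 to 295 fragments per IL-4 library. All IL-4 libraries were far below all control libraries, at 5.83% of the control mean, with a log2 fold change of −4.09 (standard error 0.28, limma adjusted p = 3.89e-05). Ms4a6c, its nearest relative in response, had 71.3, 62.6 and 63.0 FPKM in control and 12.8, 9.34 and 3.97 with IL-4. IL-4 #3 was the lowest library for both genes. The log2 fold change of Ms4a6c was −3.05 (standard error 0.36, limma adjusted p = 0.000603), and the mean was 13.3% of control. Both calls held in all 9 fits that each left out 1 library. In the set-adjusted fit the log2 fold changes were −3.57 for Ms4a6b and −2.34 for Ms4a6c (limma adjusted p = 0.000865 and 0.0101).

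Ms4a6d, the third member of this group, was not lower. It had 102.9, 109.9 and 103.6 FPKM in control and 108.0, 110.7 and 97.9 with IL-4. The libraries of the 2 conditions overlapped, and the log2 fold change of −0.00 had a 95% confidence interval from −0.23 to 0.23 (limma adjusted p = 0.997). The value depends on the scaling, with 0.20 after median-ratio rescaling and −0.15 after quantile normalization, neither of which passed. Set against Ms4a6c in the same library, Ms4a6d was 1.44, 1.76 and 1.65 times as high in control and 8.43, 11.9 and 24.6 times as high with IL-4. These ratios, which do not depend on the scaling of a library, did not overlap between the conditions.

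Ms4a7, one of the most abundant members, had 165.4, 198.8 and 168.4 FPKM in control and 47.1, 45.6 and 67.9 with IL-4. The libraries did not overlap, and the mean with IL-4 was 30.1% of control. On the log2 scale it fell by 1.75 (standard error 0.17, limma adjusted p = 0.000217). IL-4 #3 was the highest IL-4 library here, although it was the lowest for Ms4a4a, Ms4a4c, Ms4a6b and Ms4a6c.

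Ms4a4c fell from 4.79, 3.79 and 3.68 FPKM in control to 1.42, 0.942 and 0.601 with IL-4, with no overlap. The IL-4 libraries held 42 to 85 fragments. This is a log2 fold change of −2.01 (standard error 0.27, limma adjusted p = 0.00117), and the set-adjusted fit gave −1.45 (adjusted p = 0.0176). Its near-copy Ms4a4b had 0.255, 0.101 and 0.168 FPKM in control and 0.483, 0.482 and 0.200 with IL-4, from 16 to 87 fragments. The libraries overlapped, and the log2 fold change of 0.80 did not pass (limma adjusted p = 0.217). Without IL-4 #3, the lowest IL-4 library and the one that overlaps with control, it was 1.12 and passed (adjusted p = 0.0372). Beside it, 7 T-cell markers summed to 0.963 to 1.73 FPKM in control, 2.78 to 4.51 with IL-4 and 1.65 to 2.04 with IL-6, and 1 of the 2 that passed the filter, Lck, was called higher with IL-4, though not in the set-adjusted fit. The level of Ms4a4b relative to Ms4a4c was 0.0533, 0.0267 and 0.0455 in control and 0.340, 0.511 and 0.332 with IL-4. Every IL-4 library thus had a larger share of Ms4a4b than any control library.

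Ms4a4a, the Dectin-1 partner, had the largest standard error of the tested members. It had 299.5, 137.0 and 166.7 FPKM in control and 82.9, 71.3 and 6.98 with IL-4. All IL-4 libraries lay below all control libraries, but IL-4 #3 was far below the other IL-4 libraries. With that spread the log2 fold change of −2.45 had a standard error of 0.85 and was not called (limma adjusted p = 0.0699). Without IL-4 #3 it was −1.30 and called (adjusted p = 0.0118), and without IL-4 #1 it was −3.08 and called (adjusted p = 0.0365). The adjusted p ran from 0.0118 to 0.618 over the alternatives, and was highest in the set-adjusted fit (−1.19).

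Ms4a8a, a member described in alternatively activated Mϕs, was the one called higher with IL-4. It had 0.383, 0.167 and 0.111 FPKM in control and 2.59, 2.30 and 3.28 with IL-4, from 7 to 24 fragments in control and 125 to 235 with IL-4. The conditions did not overlap, and the mean with IL-4 was 12.4 times that of control. In the fit it was 3.21 higher on the log2 scale (standard error 0.33, limma adjusted p = 0.000284). With a pseudocount of 1 it shrank to 1.61 and stayed called. Its means of 0.220 FPKM in control and 0.612 with IL-6 would together fall below the filter. Ms4a8a was thus tested only through its IL-4 libraries. Its call stayed in all 19 alternatives, the fit without a filter included. Ms4a4d was at or below 3 fragments in each of the 9 libraries, with 2, 3 and 3 in control, 1, 0 and 0 in the IL-4 libraries and 3, 1 and 2 in the IL-6 libraries. At this depth a change could not be detected.

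Within the set of libraries that holds the controls, IL-4 #1 alone had 8.03% of the control mean for Ms4a6b, 19.5% for Ms4a6c, 26.5% for Ms4a7, 34.7% for Ms4a4c and 41.2% for Ms4a4a. For Ms4a6d it had 102.4%, and for Ms4a8a 11.8 times the control mean. These values have no replicate within the set.

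**Figure D2:**
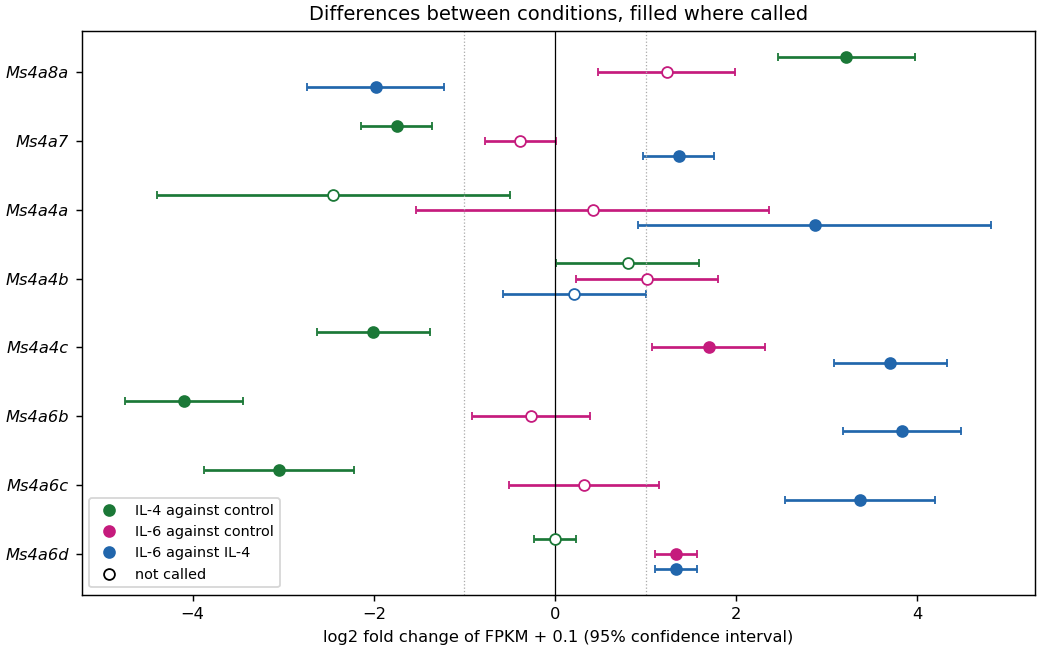
Log2 fold changes of FPKM + 0.1 for 8 members in the 3 comparisons, as points with 95% confidence intervals from limma (n = 3 libraries per condition), filled where the member was called. Dotted lines mark a log2 fold change of 1 in either direction. Ms4a6d is the member with no shift with IL-4 and a called shift with IL-6, and the interval of Ms4a4a is the widest.

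IL-6 against control asks how IL-6, which the study set beside IL-4 as an alternative polarizing cytokine, changed the family. Of the 7 members tested, 2 were called, both higher with IL-6, against 3.49% of all genes tested called higher and 1.89% lower. The median log2 fold change of the 7 members was 0.42, and that of all genes tested was −0.00. IL-4 and IL-6 were compared with the same control libraries, so the values are given side by side without a measure of overlap.

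Ms4a6d rose with IL-6 from 102.9, 109.9 and 103.6 FPKM in control to 271.3, 260.4 and 265.0. It had the highest mean in these Mϕs, although Ms4a4a was higher in IL-6 #1 and #3. The IL-6 libraries held 14124 to 16420 of its fragments. The mean was 251.8% of control, which is 1.33 higher on the log2 scale (standard error 0.10, limma adjusted p = 0.000215). It stayed between 1.31 and 1.36 when each library was left out in turn. The set-adjusted fit gave 1.38 (adjusted p = 0.0225).

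Ms4a4c also rose, from 4.79, 3.79 and 3.68 FPKM to 11.8, 14.1 and 14.3, which is 328.4% of the control mean. No library of one condition reached those of the other. The fit gave a log2 fold change of 1.70 (standard error 0.27, limma adjusted p = 0.0074), and the set-adjusted fit 2.53 (adjusted p = 0.0248). Ms4a4c is thus the member whose called changes had opposite signs, lower with IL-4 and higher with IL-6. Ms4a4b had 0.495, 0.366 and 0.469 FPKM with IL-6, all above the control libraries, with a log2 fold change of 1.01 that did not pass in the fit without a filter (limma adjusted p = 0.205). Its level relative to Ms4a4c was 0.0418, 0.0259 and 0.0328 with IL-6, which overlaps with control.

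In the IL-6 libraries Ms4a8a had 0.559, 0.734 and 0.544 FPKM, on 30 to 43 fragments. All 3 lay above the control libraries, and the log2 fold change of 1.23 (standard error 0.33) was just short of the threshold (limma adjusted p = 0.0598). It was called without Control #1 (1.57, adjusted p = 0.0203) and without IL-4 #3 (1.23, adjusted p = 0.0296), and it was 0.41 with a pseudocount of 1.

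The other members were not called with IL-6. Ms4a4a had 282.0, 210.7 and 274.3 FPKM, a range that overlaps with control, and a log2 fold change of 0.42 (95% confidence interval −1.53 to 2.37, limma adjusted p = 0.823). Ms4a6c had 83.9, 80.1 and 81.5 FPKM, all above control, with a log2 fold change of 0.32 (95% confidence interval −0.51 to 1.15, limma adjusted p = 0.676). Ms4a6b had 20.9, 19.2 and 19.5 FPKM, all below control, with −0.27 (95% confidence interval −0.92 to 0.39, limma adjusted p = 0.66). Ms4a7 had 143.7, 137.2 and 126.5 FPKM, again below control, with −0.38 (95% confidence interval −0.77 to 0.01, limma adjusted p = 0.246). In the set-adjusted fit Ms4a6b was at 0.52 and Ms4a6c at 1.38 with IL-6, and neither passed (adjusted p = 0.402 and 0.23), so no direction is given for Ms4a6b.

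The balance within the Ms4a6 group shifted in both conditions. Ms4a6b was 0.359, 0.391 and 0.347 times Ms4a6c in control, 0.150, 0.162 and 0.188 times in IL-4 libraries and 0.249, 0.240 and 0.239 times in IL-6 libraries. The 3 conditions did not overlap. Ms4a6d was 3.23, 3.25 and 3.25 times Ms4a6c with IL-6, above each control ratio and below each IL-4 ratio. The ratios of control and IL-6 libraries also come from different sets.

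**Figure D3:**
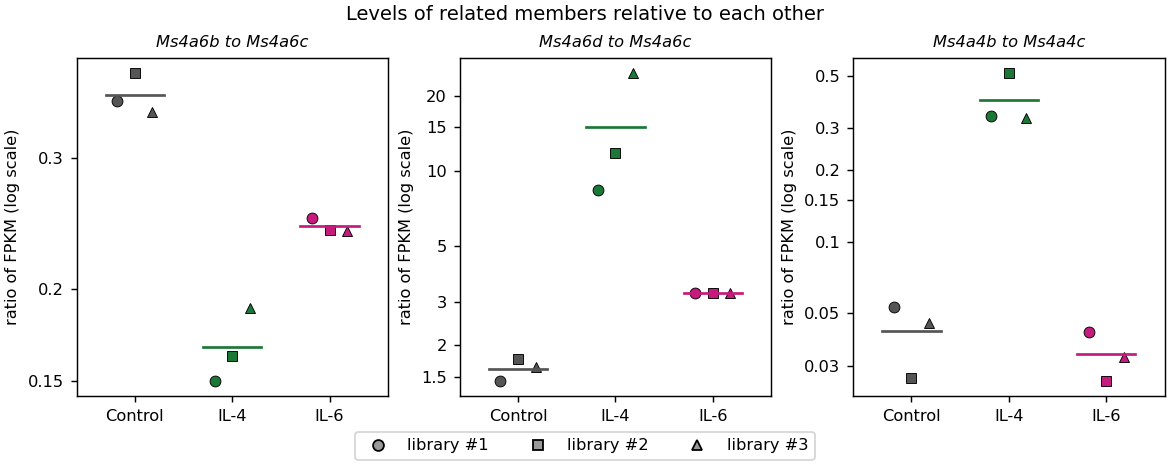
Ratios of FPKM between related members in each library on log axes, with circles, squares and triangles for libraries #1, #2 and #3 and a line at the mean of 3 libraries. The ratio of Ms4a6b to Ms4a6c falls from about 0.365 in control to 0.167 with IL-4, and the ratio of Ms4a4b to Ms4a4c rises from 0.0418 to 0.394.

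IL-6 against IL-4 asks whether the 2 responses differ, and it is the test of that difference. All 7 members tested were called, 6 higher and 1 lower with IL-6. Over all genes tested, 13.6% were called higher and 6.82% lower, a split of 1738 and 875 that became 1398 and 1165 with median-ratio rescaling. The median log2 fold change of the 7 members was 2.87, against 0.22 over all genes tested (0.02 after rescaling).

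The largest differences were those of Ms4a6b (log2 fold change of 3.83, standard error 0.28, limma adjusted p = 3.56e-05), Ms4a4c (3.70, adjusted p = 3.32e-05) and Ms4a6c (3.37, adjusted p = 0.000256). For Ms4a6b and Ms4a6c the IL-6 libraries were near the control libraries, and for Ms4a4c both conditions had moved away from control. Ms4a7 was 1.36 higher (adjusted p = 0.000567) and Ms4a6d 1.33 higher (adjusted p = 3.56e-05) on the log2 scale. Ms4a8a was lower with IL-6, at −1.98 (limma adjusted p = 0.00251), and was tested only through its IL-4 libraries.

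Ms4a4a was called in this comparison, at 2.87 (standard error 0.85, limma adjusted p = 0.0322), but the call did not hold under every alternative. It was lost without a filter (adjusted p = 0.0617), with only the groups compared (adjusted p = 0.0748), and without Control #3, IL-6 #1, IL-6 #2 or IL-6 #3 (adjusted p from 0.0531 to 0.0927). Without IL-4 #3 it was 1.72 and called (adjusted p = 0.00288). Within one set of libraries, the IL-6 mean was 17.6 times the mean of IL-4 #2 and #3 for Ms4a6b, 17.4 times for Ms4a4c, 12.3 times for Ms4a6c, 6.53 times for Ms4a4a, 2.55 times for Ms4a6d, 2.39 times for Ms4a7 and 0.22 times for Ms4a8a.

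**Figure D4:**
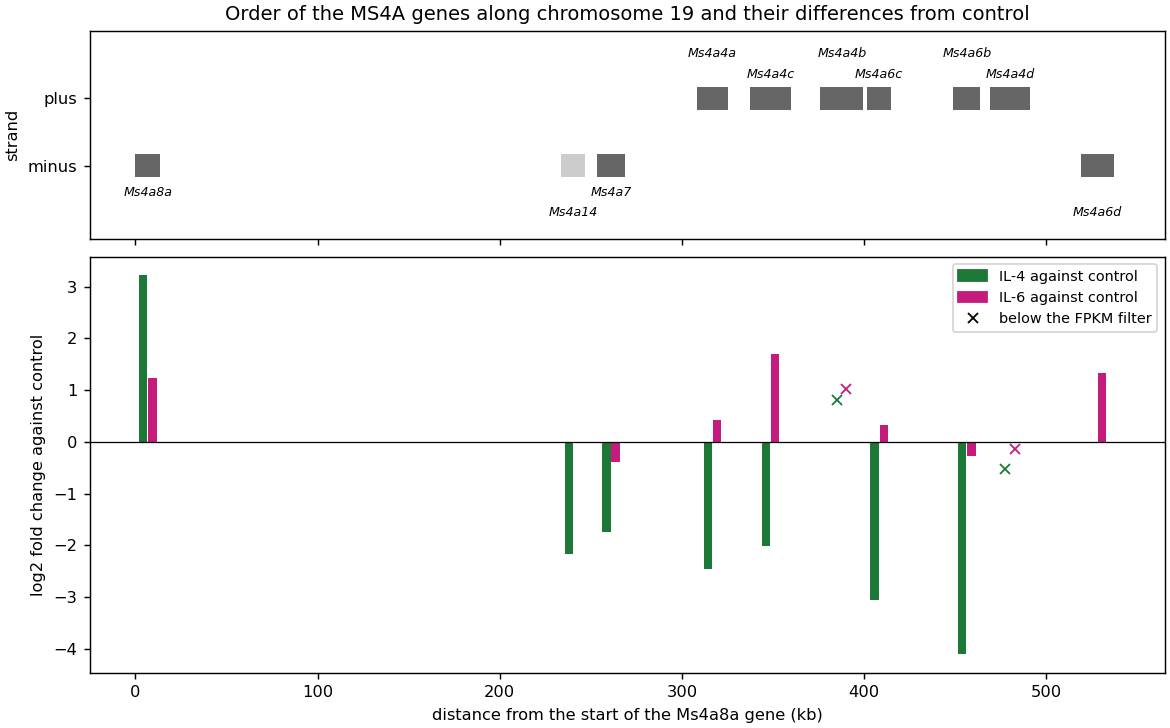
Upper panel, the members (dark) and Ms4a14 (light) as bars by distance in kb from the start of the Ms4a8a gene on chromosome 19, by strand; other genes are not drawn. Lower panel, log2 fold change of FPKM + 0.1 against control with IL-4 and IL-6, with crosses for members below the FPKM filter. From Ms4a14 to Ms4a6b the tested genes have negative values with IL-4. Ms4a8a, the first gene drawn, is positive and Ms4a6d, the last gene drawn, is at 0. Ms4a1, Ms4a2 and Ms4a3 passed the filter and are among the genes not drawn.

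Along the chromosome, the tested members between Ms4a7 and Ms4a6b were each lower with IL-4, Ms4a4a without passing the test. Of the members, the first along the chromosome, Ms4a8a, was called higher, and the last, Ms4a6d, was at its control level. These are not the ends of the MS4A cluster. Ms4a10, Ms4a15 and Ms4a18 lie before Ms4a8a, Ms4a1 lies between Ms4a8a and Ms4a7, and Ms4a2 and Ms4a3 lie beyond Ms4a6d. With IL-4, Ms4a1 (log2 fold change of −0.34) and Ms4a3 (−0.90) were not called. Ms4a2 was called higher (1.56), though not in the set-adjusted fit. Ms4a14, the MS4A gene next to Ms4a7 (11301249 to 11314454, minus strand) had 27.5, 15.5 and 17.1 FPKM in control. It had 6.33, 5.49 and 2.2 FPKM with IL-4, and 23.9, 17.6 and 17.4 FPKM with IL-6. It fell with IL-4 without overlap, with a log2 fold change of −2.16 (limma adjusted p = 0.00541) that was −1.60 and not called in the set-adjusted fit (adjusted p = 0.0987), and had −0.00 with IL-6 (limma adjusted p = 0.999). Like Ms4a4a, Ms4a4c, Ms4a6b and Ms4a6c, it was highest in Control #1 among control libraries and lowest in IL-4 #3.

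Ms4a14 belongs to a list of 14 other MS4A genes and structural relatives, of which 13 were found in the table, 6 passed the filter and 3 (Ms4a5, Ms4a13 and Ms4a15) were at 0 in every library. Of the 6, 3 fell and 1 rose with IL-4, against 8.89% and 5.02% of all genes tested. None was called with IL-6, where 1.89% of all genes tested fell and 3.49% rose. Set against IL-4, 4 were higher with IL-6 and 1 was lower, against 13.6% and 6.82% of all genes tested. Over the 6, log2 fold changes had a median of −1.53 for IL-4 and −0.00 for IL-6. The relatives Tmem176a and Tmem176b, which lie on chromosome 6 and encode proteins of the same membrane topology, showed the largest falls of the list. Tmem176a had 27.4, 28.7 and 20.8 FPKM in control and 1.89, 1.22 and 1.28 with IL-4 (log2 fold change of −4.05, limma adjusted p = 6.61e-06). Tmem176b had 70.1, 80.2 and 59.7 FPKM in control and 4.82, 3.20 and 3.23 with IL-4 (−4.20, limma adjusted p = 5.67e-06). With IL-6 both were close to control, at 30.8, 31.4 and 36.6 FPKM for Tmem176a and 64.5, 64.5 and 80.6 FPKM for Tmem176b.

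The family members that mark other lineages were low. Ms4a1, which encodes CD20, had 0.632 to 1.93 FPKM over the 9 libraries and was called in no comparison. Ms4a2 rose with IL-4, from 0.662, 0.391 and 0.770 FPKM in control to 2.4, 1.98 and 1.5 (log2 fold change of 1.56, limma adjusted p = 0.0178). In the set-adjusted fit it was 1.86 and not called (adjusted p = 0.0723). Beside it, the 7 mast cell and basophil markers summed to 49.5 to 81.9 FPKM with IL-4, 12.8 to 29.3 in control and 5.86 to 23.5 with IL-6. Of these 7, 5 were tested and 1 (Tpsb2) was at 0 in all libraries. Among the 5, 4 (Cpa3, Fcer1a, Gata2 and Mcpt8) were called higher with IL-4, 2 of them also in the set-adjusted fit. The share of all genes tested called higher with IL-4 was 5.02%. Ms4a3, a gene of granulocyte precursors, had 3.13, 5.95 and 4.99 FPKM in control. It had 3.07, 2.15 and 2.03 FPKM with IL-4 and 5.31, 7.93 and 7.03 FPKM with IL-6. It was called only between IL-6 and IL-4 (log2 fold change of 1.45, limma adjusted p = 0.00504).

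The marker lists of other cell types did not all move as the members did. The 8 immature granulocyte markers include Ms4a3. They summed to 936.4 to 1617 FPKM in control, 327.4 to 509.4 with IL-4 and 1475 to 2093 with IL-6. Of the 8, 6 fell with IL-4 (3 of them also in the set-adjusted fit), against 8.89% of all genes tested called lower. The 5 inflammatory monocyte markers, Ccr2, Ly6c2, Plac8, Fn1 and Chil3, all rose with IL-6, against 3.49% of all genes tested. Ccr2 rose from 3.81 to 41.8 FPKM in the mean and Ly6c2 from 13.6 to 42.9 FPKM. These 2 stayed called in the set-adjusted fit (log2 fold changes of 5.24 and 2.28, limma adjusted p = 0.00559 and 0.0222), and Plac8, Fn1 and Chil3 did not. With IL-4, Ly6c2 fell and Chil3 and Fn1 rose, and Ly6c2 was not called in the set-adjusted fit. The 6 B-cell markers summed to 28.7 to 51.5 FPKM in control, 23.3 to 32.2 with IL-4 and 19.8 to 33.5 with IL-6, and none was called. The dendritic cell markers summed to at most 8.08 FPKM in any library. Siglech, 1 of the 3 tested, fell with IL-4 (log2 fold change of −1.75, limma adjusted p = 0.00599), against 8.89% of all genes tested. It was higher with IL-6 than with IL-4 (1.54, limma adjusted p = 0.00813), against 13.6% of all genes tested. Only the second call stayed in the set-adjusted fit. The part of these cells in the member levels was not tested.

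Among 11 receptors and signaling molecules that MS4A proteins are known to work with, 2 fell and 1 rose with IL-4, and 2 fell and 1 rose with IL-6. Of all genes tested, 8.89% were called lower and 5.02% higher with IL-4, and 1.89% lower and 3.49% higher with IL-6. Fcgr1 (CD64, the high-affinity IgG receptor) fell with IL-4 from 66.3 ± 8.56 to 18.5 ± 1.67 FPKM (log2 fold change of −1.83, limma adjusted p = 6.39e-05). Kit, the stem cell factor receptor, fell from 0.838 ± 0.0643 to 0.309 ± 0.204 FPKM (−1.35, adjusted p = 0.041). Tnfrsf18, which encodes GITR, rose with IL-4 from 0.35 ± 0.137 to 1.57 ± 0.176 FPKM (1.93, adjusted p = 0.00106). With IL-6, Clec7a, which encodes Dectin-1, fell from 234.7 ± 14.2 to 100.1 ± 7.63 FPKM (−1.23, limma adjusted p = 0.0201), and Trem2 fell from 222.0 ± 37.9 to 90.9 ± 6.78 FPKM (−1.28, adjusted p = 0.0492). Fcgr2b, the inhibitory IgG receptor, rose from 88.2 ± 12.0 to 176.1 ± 8.47 FPKM (1.00, adjusted p = 0.0264). None of these 3 IL-6 calls held in the set-adjusted fit, where Clec7a was at −0.65, Trem2 at −2.11 and Fcgr2b at 1.28 (limma adjusted p = 0.317, 0.10 and 0.175). Of the 3 IL-4 calls, Kit was lost there (−0.67, adjusted p = 0.486). Clec7a was at 416.9 ± 140.0 FPKM with IL-4 and did not pass there (0.77, limma adjusted p = 0.0549). The transcripts of Clec7a and Ms4a4a therefore differed between IL-6 and IL-4 in opposite directions. Clec7a differed by −2.0 (limma adjusted p = 0.000554). Ms4a4a differed by 2.87 (limma adjusted p = 0.0322), a call that was lost in 6 of 20 alternatives.

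The members most alike over the 9 libraries were Ms4a6b and Ms4a6c, with a Pearson r of 0.985 of log2(FPKM + 0.1). The 9 points fall into 3 conditions and share their libraries, so these r describe the pattern across conditions and carry no p. Ms4a4c and Ms4a6c had r = 0.922, Ms4a6b and Ms4a7 also 0.922, and Ms4a4a and Ms4a6c 0.915. Ms4a6d was less like the others, with r of −0.139 with Ms4a8a and from 0.290 with Ms4a7 to 0.830 with Ms4a4c. Ms4a8a ran against the tested members other than Ms4a6d, from −0.614 with Ms4a4c to −0.920 with Ms4a7. Outside the 9 members, the MS4A gene Ms4a14 had r = 0.974 with Ms4a6c, and the relative Tmem176b had 0.989 with Ms4a6b.

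For each tested member the 2 most similar genes were taken from the 12813 tested genes that are not MS4A genes. They were Jrkl and Cep120 for Ms4a4a (r = 0.999 and 0.998), Mcl1 and Apobec3 for Ms4a4c (0.997 and 0.996), Nectin4 and Cbx6 for Ms4a6b (0.997 and 0.997), and Pram1 and Csf3r, the G-CSF receptor gene, for Ms4a6c (0.997 and 0.997). For Ms4a6d they were Nrg1 and Cd38 (0.997 and 0.996), for Ms4a7 Frat1 and Ebi3 (0.999 and 0.993), and for Ms4a8a Hgsnat and Tnfrsf18 (0.979 and 0.977).

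**Figure D5:**
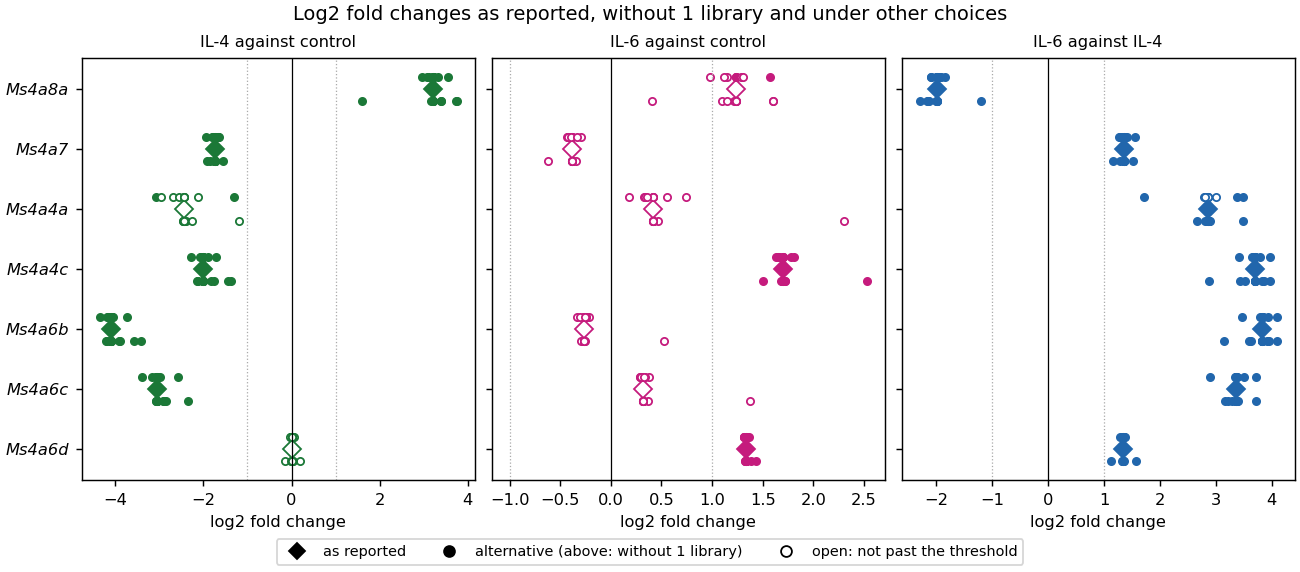
Log2 fold changes of the 7 tested members in the 3 comparisons, with a diamond for the value reported, circles above it for the 9 fits that each left out 1 library and circles below it for the other alternatives. Filled symbols are called. The symbols of Ms4a6b, Ms4a6c, Ms4a7 and Ms4a4c with IL-4 are all filled, and those of Ms4a4a are mixed.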

How the data were processed

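RNA-seq of mouse BM-derived Mϕs was analysed from the values that the authors deposited, which are FPKM of 53379 genes in 9 libraries. Per the methods and processing notes they were made with STAR 2.4.2a on GRCm38 and Cufflinks 2.2.1. The FPKM steps were checked against exon lengths of GENCODE M21, whose identifiers match 94.8% of the genes with their version. All 100882 values of up to 100 fragments were whole fragments within 0.05 (100.0%), so which program and annotation made the table stays uncertain. The identifier of Ms4a4b has another version than in M21, and its fragments are the smallest whole numbers that fit its steps. The floor of 3 fragments allows for counting error alone.

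Values were analysed as log2(FPKM + 0.1), genes with a mean of at least 0.5 FPKM were kept, and limma 3.58.1 (R 4.3.3) was used to fit the 3 group means, with a robust trended eBayes and p-values adjusted by Benjamini-Hochberg. Adjusted p-values in the text are from this fit unless an alternative is named. Tested on simulated data, the fit recovered 167 of 200 changed genes for IL-6 against control with 8 false calls. The changes put in were all larger than the threshold for a call, and no set of libraries was simulated. Recovery near the threshold, or with the split into sets, was therefore not measured. The set of libraries was split at the midpoint, on a log scale, of the summed FPKM of intestinal genes (0.871). The alternatives tried were other pseudocounts (1 and 0.01), other filters (none, and a mean of at least 5 FPKM), median-ratio rescaling, quantile normalization, only the groups compared, the replicate number as a block, the set as a term, limma voom on recovered fragments, the adjusted p alone, and leaving out each library. The set term for genes of the lists was added after seeing the data.

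The labels name 3 mice and give the same 3 numbers in each condition. Over the tested genes, deviations from the group means of same-numbered libraries had r from −0.415 to 0.521, over 0.1 in 6 of 9 pairs. Where nothing more is stated of how cultures were kept apart, p-values measure the spread between these libraries. Identity between coding sequences and between promoter windows is from global alignment, since no protein table was used here. The named genes were all 9 members, list genes with a mean of at least 0.5 FPKM, partner genes that were called, and the 2 most similar genes of each member. The members, the lists and the rules were chosen with earlier results of these data known. Tables and plots were made with Python, pandas and matplotlib. A gene each of the Mϕ and the inflammatory monocyte markers is not reported here, and the counts and sums of these lists leave it out.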

Additional observations from a re-analysis of the deposited data

How the results depend on the processing

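The counts of called members stayed within 1.5 times their values under every alternative. IL-4 against control gave 5, with 4 when only genes of at least 5 FPKM were tested (Ms4a8a is below that level) and 5 to 6 over the fits that left out 1 library. IL-6 against control gave 2, and 2 to 3 over those fits. IL-6 against IL-4 gave 7, and 6 without a filter, with only the groups compared or with the higher level, and 6 to 7 over those fits. With the replicate block the counts were 5, 2 and 7, and no member's call changed. Of 534 values of single members under an alternative, 523 kept their call, 6 lost it and 5 gained it, and no called value changed sign. Ms4a6b with IL-6, which was not called, went from −0.27 to 0.52 in the set-adjusted fit, and the cause was not tested. The 11 changes of call concern Ms4a4a, Ms4a4b or Ms4a8a and are given with them.

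Limits remain. Having 3 libraries per condition leaves a wide interval for Ms4a4a, and Ms4a4b, Ms4a4d and Ms4a8a rest on few fragments in control. Intestinal transcripts separate all control libraries from all IL-6 libraries, so the set-adjusted fit rests on IL-4 #1 against IL-4 #2 and #3. With limma voom on recovered fragments 5, 2 and 7 members were called, and 1682, 605 and 2394 of the 11356 genes tested.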

Other observations

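Ms4a4a and the nearby Ms4a14 shared a pattern among replicates that the conditions do not give. Both were highest in Control #1 among the control libraries, by 299.5 against 137.0 and 166.7 FPKM for Ms4a4a and by 27.5 against 15.5 and 17.1 FPKM for Ms4a14, and both were lowest in IL-4 #3 among the IL-4 libraries. Ms4a4c, Ms4a6b and Ms4a6c were also highest in Control #1 and lowest in IL-4 #3, so the pattern is not particular to this pair. The r of Ms4a4a and Ms4a14 over the 9 libraries was 0.950, which includes the differences between conditions. With Ms4a6c and Ms4a6b the r of Ms4a14 was higher, at 0.974 and 0.961. Ms4a7, which lies between Ms4a4a and Ms4a14, had its highest control value in Control #2 and its highest IL-4 value in IL-4 #3. These values were picked after they were seen, and their cause was not tested.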
